A study of Mus musculus with 24 samples.

Results

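The interleukin-1 family genes Il1a, Il1b, Il1rn, Il36a, Il36g, Il18, Il33, Il1r1, Il1r2 and Il1rap were examined for chromatin accessibility in bone marrow-derived macrophages (BMDMs). Their regions were the consensus ATAC-seq peaks (mm10) that overlapped the gene body or the 20 kb on either side of it in the GENCODE vM21 annotation, each given to the nearest of the 10 genes. By this rule 161 of the 184158 consensus peaks belonged to the family, of which 158 passed the filter on low counts and were tested. The 3 peaks left out were 2 of Il36g and 1 of Il1rap. Per gene there were 10 peaks for Il1a, 9 for Il1b, 15 for Il1rn, 2 for Il36a, 8 for Il36g, 16 for Il18, 15 for Il33, 29 for Il1r1, 20 for Il1r2 and 37 for Il1rap. The outermost peak inside the limit lay 19796 bp from Il18 with a mean of 1.19 CPM, and the nearest one outside lay 20445 bp from Il1rap with 0.443 CPM.

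ATAC-seq reads DNA cut by a transposase in open chromatin, and it was run on 24 libraries in 4 groups of 6. Wildtype (WT) and AhR-deficient (AhR-KO) bone marrow was grown in RPMI with 10% serum, TGF-β at 2 ng/ml and GM-CSF at 10 ng/ml. LPS groups received 97 EU/ml LPS on day 6 for 24 h, and unstimulated groups did not. The labels attach 10 min with 5 µM of the calcium ionophore A23187 to every library. The aryl hydrocarbon receptor (AhR) switches on genes when small aromatic ligands bind it. AhR-KO mice carry a disrupted Ahr in all cells (B6.129-Ahr tm1Bra/J), WT mice were C57BL/6J, and animals of both sexes were 7 to 14 weeks old. Each group came from 6 animals of 1 experiment, so p-values measure the spread between animals within that experiment, and the labels do not say which unstimulated and LPS libraries share an animal. Because whole cultures were measured, fewer cells of a type and less open chromatin per cell cannot be told apart.

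Interleukin-1 family cytokines are alarm signals of innate immunity. IL-1α and IL-1β bind the receptor IL1R1 together with the shared accessory chain IL1RAP and signal through MYD88 to NF-κB and AP-1. The antagonist encoded by Il1rn and the decoy receptor IL1R2 hold this signal back. IL-36 cytokines act mainly at epithelial barriers, IL-18 drives interferon-γ release by lymphocytes, and IL-33 activates type 2 immunity through a receptor that again needs IL1RAP. In macrophages, LPS is a classical inducer of Il1a, Il1b and Il1rn.

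Counts per peak were scaled to CPM, a share of the library total in peaks after TMM adjustment, and compared with edgeR's quasi-likelihood test fitted on all 174193 tested peaks. A peak was called when its adjusted p was at most 0.05 and its fold change at least 1.5. Log2 fold changes are given ± their standard error, as AhR-KO over WT or LPS over unstimulated, with n = 6 libraries per group and adjusted p-values from edgeR. The interaction is the genotype difference with LPS minus the genotype difference without it. The comparisons share libraries, so their values are given side by side. Library totals ran from 8536838 counts, in unstimulated WT replicate 5, to 34598345 counts.

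Of 13 consensus peaks over Ahr (chromosome 12), 8 were higher in every AhR-KO than in every WT library without LPS and 2 were lower, and with LPS 9 were higher and 1 was lower. None covered exon 2, so they do not test the deletion itself, and 0 of the family peaks lay on that chromosome. Peaks over transcription start sites (TSSs) were present for 6 of 7 macrophage and 6 of 6 alveolar macrophage marker genes, for 1 of 5 T cell genes and for 0 of 4 B cell genes.

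The stretches with some of the smallest p-values between genotypes are printed here, each as the 200 bases at the centre of its peak (plus strand, mm10), to show the regions the genotype results turn on. Capitals mark matches on either strand to AP-1 (TGANTCA), C/EBP (TTGCNNAA), AhR (TNGCGTG), ISRE (GAAA, any 2 bases, GAAA), PU.1 (GAGGAAGT), the AhR core (GCGTG) or an NF-κB motif.
Il1rap intron, 48.4 kb from the gene start, lower in AhR-KO, chr16:26630045-26630244: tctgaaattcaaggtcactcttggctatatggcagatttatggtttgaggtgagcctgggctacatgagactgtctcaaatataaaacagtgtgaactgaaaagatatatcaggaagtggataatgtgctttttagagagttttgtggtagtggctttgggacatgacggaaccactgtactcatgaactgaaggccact
Il18 upstream, 18.8 kb, lower in AhR-KO, chr9:50535967-50536166: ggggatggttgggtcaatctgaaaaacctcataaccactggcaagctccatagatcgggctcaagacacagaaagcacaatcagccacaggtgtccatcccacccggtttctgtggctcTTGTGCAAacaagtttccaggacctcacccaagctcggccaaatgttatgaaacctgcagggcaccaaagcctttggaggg
Il1r2 intron, 9.3 kb from the gene start, lower in AhR-KO, chr1:40083314-40083513: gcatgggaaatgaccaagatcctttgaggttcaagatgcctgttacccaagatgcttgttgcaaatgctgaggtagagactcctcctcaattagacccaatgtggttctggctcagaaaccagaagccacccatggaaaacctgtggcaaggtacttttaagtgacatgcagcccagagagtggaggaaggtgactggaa
Il18 upstream, 11.2 kb, higher in AhR-KO, chr9:50543575-50543774: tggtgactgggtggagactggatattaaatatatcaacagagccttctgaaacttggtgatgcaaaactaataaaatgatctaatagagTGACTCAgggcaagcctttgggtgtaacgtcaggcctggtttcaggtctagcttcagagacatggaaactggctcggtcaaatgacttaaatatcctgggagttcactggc
Il33 upstream, 2.0 kb, higher in AhR-KO, chr19:29923017-29923216: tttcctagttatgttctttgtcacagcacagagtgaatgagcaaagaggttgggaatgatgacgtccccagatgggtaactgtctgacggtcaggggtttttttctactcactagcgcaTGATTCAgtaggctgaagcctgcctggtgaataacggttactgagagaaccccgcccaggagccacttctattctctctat
Il33 intron, 17.5 kb from the gene start, higher in AhR-KO, chr19:29942492-29942691: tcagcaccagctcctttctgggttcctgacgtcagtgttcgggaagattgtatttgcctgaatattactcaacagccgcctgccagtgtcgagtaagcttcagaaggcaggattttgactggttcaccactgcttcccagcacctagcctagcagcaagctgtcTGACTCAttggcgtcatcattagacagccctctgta

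The 3 printed windows higher in AhR-KO each held 1 AP-1 match. Of the lower windows, that of Il18 held 1 C/EBP match and those of Il1rap and Il1r2 held 0 matches. None of the 6 held an AhR match. The printed windows were a choice among the top-ranked peaks, so their matches give no rate for such peaks. Not printed were the Il33 peaks 15.7 kb into the gene and 19.4 kb upstream, also ranked for higher signal in AhR-KO. Their AP-1 matches lay outside the central stretch. The Il1a peak 10.2 kb upstream, ranked likewise and not printed, had an AP-1 match inside it.

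RefSeq promoters (250 bases before to 50 after the start, GRCm38.p6) were matched for 9 of the 10 genes. Those of Il1a (minus strand) and Il1rn (plus strand) are shown because they held AP-1 letters, which 7.81% of 32851 promoters held.
Il1a promoter, chr2:129309923-129310222: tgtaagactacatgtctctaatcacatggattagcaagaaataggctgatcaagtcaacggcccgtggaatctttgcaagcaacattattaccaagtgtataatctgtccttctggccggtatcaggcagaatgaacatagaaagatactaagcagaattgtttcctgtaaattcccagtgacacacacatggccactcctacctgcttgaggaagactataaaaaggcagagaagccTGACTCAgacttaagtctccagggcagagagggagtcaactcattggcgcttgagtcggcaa
Il1rn promoter, chr2:24336610-24336909: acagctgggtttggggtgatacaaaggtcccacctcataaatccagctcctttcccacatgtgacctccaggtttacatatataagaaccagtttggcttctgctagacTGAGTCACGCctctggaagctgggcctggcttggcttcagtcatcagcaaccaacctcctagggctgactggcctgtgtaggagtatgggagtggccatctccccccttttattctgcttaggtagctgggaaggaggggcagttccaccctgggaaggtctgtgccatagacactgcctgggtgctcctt

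In Il1rn the AP-1 match overlaps an AhR core match on the other strand, so the capitals run through both. The AhR core stood in 32.4% of all promoters. The Il1b promoter held 0 matches.

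Without LPS, the called peaks of Il1a, Il1b, Il18 and Il33 were mostly higher in AhR-KO, and those of Il1r2 and Il1rap were lower. Of the 158 family peaks 20 were higher and 23 were lower, or 27.2% against a background of 22.6% of all tested peaks (9.95% higher and 12.6% lower). The 73 tested peaks of Il1a, Il1b, Il1rn, Il36a, Il36g, Il18 and Il33 held 17 of the higher and 6 of the lower calls. The 85 tested peaks of Il1r1, Il1r2 and Il1rap held 3 of the higher and 17 of the lower calls. Within the first group Il1a had 3 higher and 0 lower, Il1b 4 higher and 0 lower, Il18 4 higher and 2 lower and Il33 6 higher and 1 lower, whereas the antagonist gene Il1rn had 0 higher and 1 lower, Il36g 0 higher and 2 lower and Il36a 0 higher and 0 lower. Among the receptors Il1r2 had 0 higher and 6 lower and Il1rap 0 higher and 9 lower, and Il1r1 differed from them with 3 higher and 2 lower (6 higher and 1 lower with the size factors of DESeq2). With the size factors of DESeq2 in place of TMM the family split turned to 24 higher and 18 lower (57.1% of calls higher, against 46.5%), as the share over all tested peaks moved from 44.05% to 51.6%, while the ligand genes had 18 higher and 4 lower and the receptor genes 6 higher and 14 lower.

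With LPS, 23 family peaks were higher in AhR-KO and 11 were lower, or 21.5% against a background of 26.5% (13.4% higher and 13.1% lower). Il33 alone held 9 of the higher peaks. The ligand and antagonist genes had 15 higher and 3 lower, with Il18 at 3 and 3. The receptor genes had 8 higher and 8 lower, with Il1rap at 2 and 3, so their split at rest was not seen with LPS. LPS raised 65 and lowered 22 family peaks in WT BMDMs, 55.1% against a background of 47% (25.4% higher and 21.6% lower). In AhR-KO BMDMs it raised 64 and lowered 17, 51.3% against 48.8% (27.3% higher and 21.5% lower). The median log2 change with LPS over family peaks was 0.22 in WT and 0.31 in AhR-KO, beside -0.01 and 0.05 over all tested peaks.

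Groups of libraries that did not overlap gave a similar count. Between unstimulated genotypes 18 family peaks were higher and 22 lower in every AhR-KO library (background 21%, of which 9.78% higher and 11.3% lower), and with LPS 24 and 12 (background 19.6%, 10.6% and 8.96%). LPS and unstimulated libraries separated for 58 higher and 25 lower peaks in WT (background 38.7%, 20.5% and 18.3%) and for 68 and 21 in AhR-KO (background 45.6%, 24.9% and 20.6%). At an adjusted p of 0.05 with any fold, 71 and 73 family peaks passed between genotypes without and with LPS (background 40.1% and 44.7%), 120 and 120 with LPS in WT and AhR-KO (background 63.9% and 66.2%).

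Some 56 family peaks were higher with LPS in both genotypes (35.4%, background 20.9%), and 14 were lower in both (8.86%, background 15.7%). In both treatments 11 were higher in AhR-KO (6.96%, background 5.08%) and 6 were lower (3.8%, background 6.95%). The 11 comprised 5 peaks of Il33 and 2 each of Il1b, Il18 and Il1r1, and the 6 comprised 3 of Il1rap, 2 of Il1r2 and 1 of Il18. A further 43 peaks (27.2%, background 32.3%) were called in none of the comparisons.

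**Figure D1:**
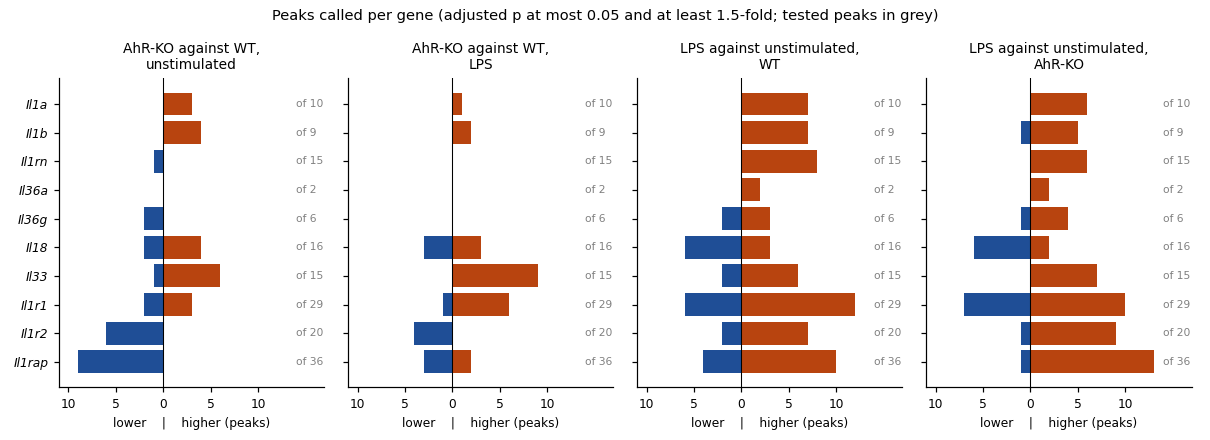
Number of peaks called per gene in the comparisons between groups (horizontal axis: peaks, lower to the left and higher to the right). Without LPS, all called Il1rap (9) and Il1r2 (6) peaks were lower in AhR-KO, and with LPS all 9 called Il33 peaks were higher.

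Summed over its peaks, Il1b had 53.9 to 66.7 CPM per library in unstimulated WT and 73.4 to 89.9 CPM in unstimulated AhR-KO BMDMs, with no overlap. Il33 had 36.8 to 45.8 CPM and 56.6 to 63.9 CPM without LPS, and 44.6 to 53.7 CPM and 81.1 to 88.996 CPM with it, so the genotypes did not overlap in either treatment. Il1rap had 213 to 232 CPM in unstimulated WT against 148 to 189 CPM in unstimulated AhR-KO, whereas with LPS WT had 218 to 251 CPM and AhR-KO 225 to 238 CPM. Il18 sums lay close together, with 97.9 to 105 CPM and 99.4 to 115 CPM at rest and 105 to 125 CPM and 107 to 115 CPM with LPS, although single Il18 peaks moved in both directions.

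**Figure D2:**
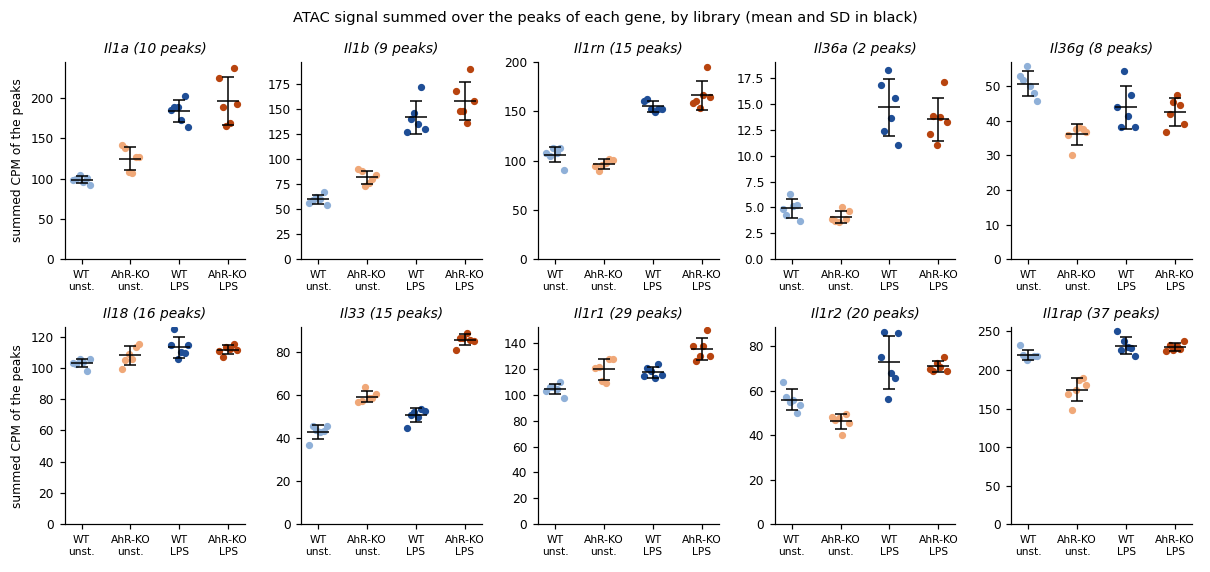
Summed CPM over the peaks of each gene (vertical axes, starting at 0) in each library (points) by group, with the group mean and SD (n = 6). Il33 in AhR-KO LPS libraries (81.1 to 89.00 CPM) stood above all other groups, and Il1rap was lowest in unstimulated AhR-KO libraries.

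Il1b encodes the precursor of IL-1β. Its largest peak covers 5982 bp over exons and introns (chr2:129363136-129369117), and among the 9 Il1b peaks it had the largest LPS change in WT. Unstimulated libraries had 3.24 to 6.40 CPM (median 3.74) in WT and 5.43 to 11.2 CPM (median 7.44) in AhR-KO. With LPS they had 58.9 to 89.1 CPM (median 65.3) and 70.03 to 92.6 CPM (median 80.4). All LPS libraries lay far above all unstimulated ones, while the genotypes overlapped within each treatment. The log2 change with LPS was 4.13 ± 0.16 in WT (adjusted p = 3.08e-17) and 3.35 ± 0.14 in AhR-KO (9.56e-17). AhR-KO exceeded WT by 1.02 ± 0.18 without LPS (4.64e-05), the difference with LPS was 0.24 ± 0.12 (0.0958, not called), and the interaction was -0.78 ± 0.21 (0.0144). Unstimulated WT replicate 5, the shallowest library, was the highest of its group here, and without it the unstimulated difference was 1.13. The peak lists of the single libraries overlapped this region in 0 of 12 unstimulated and 12 of 12 LPS libraries.

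At the Il1b TSS (chr2:129370975-129371565) the signal was 2.03 to 3.84 CPM (median 2.59) in unstimulated WT and 3.73 to 5.15 CPM (median 4.24) in unstimulated AhR-KO. With LPS it was 8.75 to 13.5 CPM (median 10.3) and 8.84 to 13.8 CPM (median 10.8). The genotypes overlapped slightly at rest and almost fully after LPS. Their difference was 0.66 ± 0.15 at rest (adjusted p = 0.000504) and 0.06 ± 0.11 with LPS (0.720), with an interaction of -0.60 ± 0.19 (0.0262). Peaks called higher in AhR-KO under both treatments lay 18456 and 16961 bp upstream and are named here after their values were seen. The former had group means of 1.72 and 4.32 CPM in unstimulated WT and AhR-KO and 2.67 and 4.53 CPM with LPS. With LPS the genotypes overlapped at each of these peaks, as 0 of the 2 called Il1b peaks separated them. At rest 1 of the 4 called Il1b peaks separated the genotypes. The Il1b peak with the most signal per kb, 2.3 kb upstream, had 10.8 to 13.4 CPM (median 12.05) and 15.5 to 19.1 CPM (median 17.1) at rest, with the genotypes apart, and 18.4 to 21.5 CPM (median 18.7) and 16.4 to 26.5 CPM (median 19.8) with LPS, where they overlapped. LPS raised it by 0.71 ± 0.09 in WT, and the 0.25 ± 0.08 in AhR-KO was under the fold threshold. Of 9 Il1b peaks LPS raised 7 in WT and 5 in AhR-KO, where it also lowered 1.

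Il1a encodes IL-1α, which is active already as a precursor. Its TSS peak (chr2:129309115-129312030) had 13.7 to 17.7 CPM (median 16.6) in unstimulated WT and 21.99 to 29.4 CPM (median 25.7) in unstimulated AhR-KO. With LPS it had 23.1 to 30.7 CPM (median 26.8) in WT and 20.8 to 29.2 CPM (median 23.3) in AhR-KO. Unstimulated WT libraries lay below all the others, which overlapped. AhR-KO exceeded WT by 0.66 ± 0.09 at rest (adjusted p = 1.46e-07). LPS raised the peak by 0.73 ± 0.09 in WT (3.33e-09), the change in AhR-KO was -0.04 ± 0.08 (0.675), and the interaction was -0.77 ± 0.12 (3.06e-05).

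The Il1a peak with the most signal per kb, 10.2 kb upstream (chr2:129319836-129320598), behaved likewise. It had 16.9 to 19.2 CPM (median 17.3) and 23.3 to 32.7 CPM (median 29.1) at rest, and 19.98 to 25.1 CPM (median 23.5) and 23.1 to 26.5 CPM (median 25.1) with LPS in WT and AhR-KO. The genotypes were apart at rest and overlapped with LPS. The difference was 0.70 ± 0.07 at rest (adjusted p = 1.44e-09) and the interaction -0.60 ± 0.10 (9.89e-05). No other Il1a peak had a called interaction, and LPS raised 7 of 10 in WT and 6 in AhR-KO. Of the 10, the peak 11.7 kb from the Il1a start, overlaps the TSS of the neighbour Ckap2l.

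Summed alveolar macrophage markers moved in the same direction as Il1a and Il1b at rest, from 49.4 to 59.9 CPM in WT to 73.1 to 91.04 CPM in AhR-KO, and macrophage markers from 116 to 128 CPM to 133 to 172 CPM. With LPS the former were at 45.7 to 55.9 CPM and 55.5 to 71.2 CPM, the latter at 104 to 117 CPM and 97.8 to 136 CPM. Of the neutrophil markers 2 of 5 had a TSS peak (Ly6g, Mpo and Elane had none), and their sum, mostly Camp, went with LPS from 12.3 to 19.6 CPM to 21.5 to 31.8 CPM in WT and from 11.4 to 13.8 CPM to 27.1 to 32.9 CPM in AhR-KO. The rise was in Camp alone, since Ngp had means of 0.933 and 0.610 CPM in WT without and with LPS and 0.444 and 0.219 CPM in AhR-KO. The part of these markers in the ligand results was not tested.

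**Figure D3:**
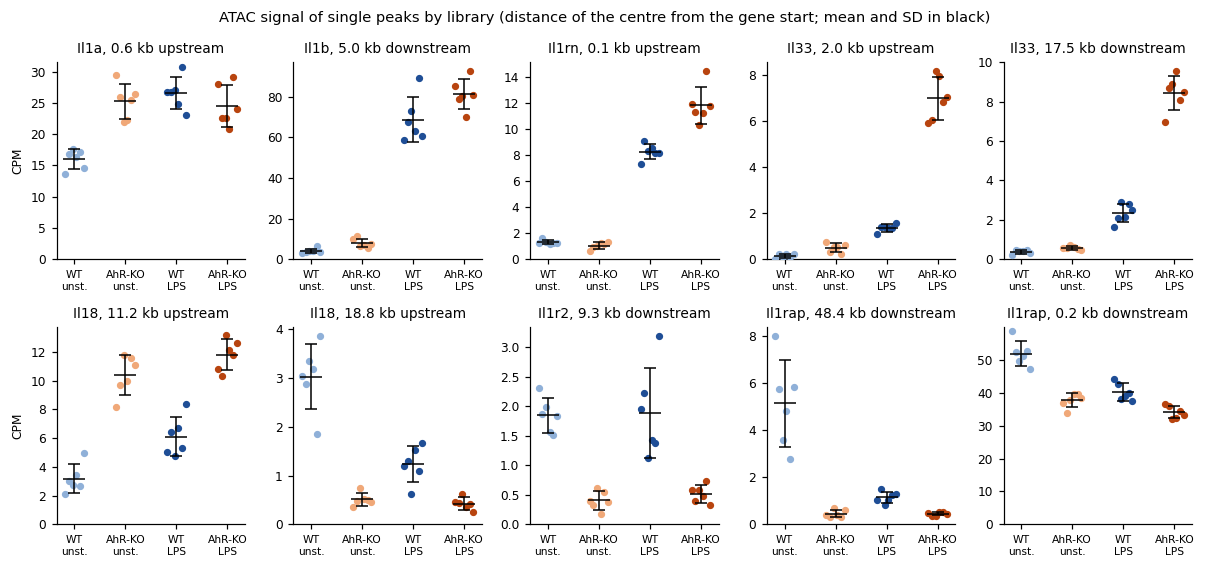
CPM of single family peaks in each library (points) by group, with the group mean and SD (n = 6, vertical axes start at 0). At the Il1a TSS the unstimulated WT libraries (13.7 to 17.7 CPM) lay below the other groups, and at Il33 2.0 kb upstream the AhR-KO LPS libraries (5.92 to 8.17 CPM) lay above them.

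Il1rn encodes the IL-1 receptor antagonist. The peak over its gene start (chr2:24336603-24336988, overlapping the promoter printed above) had the smallest p of the family for higher signal with LPS in each genotype. It had 1.15 to 1.61 CPM (median 1.28) and 0.629 to 1.31 CPM (median 1.10) in unstimulated WT and AhR-KO, and 7.31 to 9.12 CPM (median 8.28) and 10.3 to 14.5 CPM (median 11.6) with LPS. The genotypes overlapped at rest, and with LPS every AhR-KO library lay above every WT library. WT rose with LPS by 2.64 ± 0.13 (adjusted p = 1.34e-19) and AhR-KO by 3.49 ± 0.12 (1.31e-23), with an interaction of 0.85 ± 0.19 (0.00203). The genotype difference with LPS, 0.52 ± 0.09 (2.60e-05), fell short of the fold threshold.

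At the 3' end of Il1rn, a peak 15.5 kb from the start had 4.31 to 7.68 CPM (median 5.79) and 3.12 to 4.28 CPM (median 3.81) at rest and 15.7 to 20.2 CPM (median 17.1) and 16.8 to 29.7 CPM (median 21.1) with LPS. It rose by 1.62 ± 0.11 in WT and 2.56 ± 0.12 in AhR-KO, with an interaction of 0.94 ± 0.16 (adjusted p = 0.000157). Its lower level in AhR-KO at rest, -0.61 ± 0.13, missed the fold threshold without unstimulated WT replicate 5 (-0.55). A peak 3.7 kb upstream rose by 2.25 ± 0.11 and 2.21 ± 0.10, with an interaction of -0.03 ± 0.15. The TSS peak with the most signal, over an internal start 9.7 kb into the gene, changed by 0.31 ± 0.08 in WT and 0.51 ± 0.08 in AhR-KO and was not called. The intronic peak with the most signal per kb, 4.8 kb into the gene, had 12.3 to 14.9 CPM (median 13.6) and 14.9 to 18.7 CPM (median 17.8) at rest and 19.2 to 21.9 CPM (median 20.2) and 22.6 to 30.5 CPM (median 25.6) with LPS, and rose by 0.60 ± 0.07 in WT. LPS raised 8 of 15 Il1rn peaks in WT and 6 in AhR-KO. Between genotypes 1 was called at rest and 0 with LPS, where 7 of 15 passed the adjusted p without the fold threshold.

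The IL-36 genes, listed as Il1f6 (Il36a) and Il1f9 (Il36g) in the annotation, sit beside Il1rn. Il36a had 2 peaks, and both rose with LPS in both genotypes. At its TSS (chr2:24214472-24215622) WT had 3.62 to 6.22 CPM (median 4.95) at rest and 10.6 to 17.2 CPM (median 13.96) with LPS. AhR-KO had 3.47 to 4.78 CPM (median 3.74) and 10.2 to 15.999 CPM (median 12.6). The rise was 1.54 ± 0.13 in WT (adjusted p = 1.00e-12) and 1.66 ± 0.13 in AhR-KO (9.62e-14), and neither genotype difference was called.

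The Il36g TSS peak (chr2:24186070-24186884) had 9.66 to 14.5 CPM (median 11.03) and 8.22 to 11.9 CPM (median 10.9) at rest and 12.9 to 21.2 CPM (median 14.9) and 15.4 to 22.3 CPM (median 18.6) with LPS. Its change passed in AhR-KO (0.84 ± 0.11) and not in WT (0.45 ± 0.12), and the interaction, 0.39 ± 0.16 (adjusted p = 0.102), was not called. A stronger peak 4.1 kb upstream of Il36g ran the other way. It had 19.8 to 25.7 CPM (median 22.2) in unstimulated WT and 12.1 to 15.1 CPM (median 13.7) in unstimulated AhR-KO, then 11.2 to 13.9 CPM (median 12.1) and 8.14 to 9.98 CPM (median 8.46) with LPS. WT libraries lay above AhR-KO libraries in both treatments. LPS changed it by -0.85 ± 0.08 in WT and -0.65 ± 0.08 in AhR-KO. At rest the genotypes differed by -0.70 ± 0.08 (adjusted p = 2.70e-09).

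Il18 encodes a cytokine that, like IL-1β, is processed by caspase-1. LPS lowered 6 of its 16 peaks in WT and 6 in AhR-KO, and raised 3 and 2. The decrease with the smallest p lay in an intron 12.9 kb into the gene (chr9:50567329-50568194). Unstimulated libraries had 4.62 to 7.44 CPM (median 5.69) and 6.37 to 9.39 CPM (median 7.96), and LPS libraries 1.30 to 2.30 CPM (median 2.12) and 1.72 to 2.65 CPM (median 2.17) in WT and AhR-KO. Both LPS groups lay below both unstimulated groups. The change was -1.64 ± 0.14 (adjusted p = 1.79e-12) and -1.88 ± 0.14 (1.31e-14). An intronic peak 15.4 kb into the gene, the one with the most signal per kb, rose by 1.02 ± 0.09 and 0.93 ± 0.09. A peak 17.2 kb upstream had 6.05 to 7.68 CPM (median 6.75) and 4.72 to 7.12 CPM (median 5.68) at rest, which overlapped, and 2.93 to 4.47 CPM (median 3.59) and 1.78 to 2.36 CPM (median 2.14) with LPS, which did not. Its LPS change was -0.86 ± 0.12 for WT libraries and -1.43 ± 0.12 for AhR-KO, with a genotype difference of -0.80 ± 0.13 with LPS (adjusted p = 2.49e-06). The TSS peak, which also covers the TSS of the neighbour Bco2, was called in none of the comparisons, with group means of 25.6, 21.9, 29.9 and 23.9 CPM in unstimulated WT, unstimulated AhR-KO, WT LPS and AhR-KO LPS.

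Upstream of Il18 lay peaks with opposite genotype differences. The peak 18.8 kb upstream had 1.86 to 3.86 CPM (median 3.11) in unstimulated WT and 0.354 to 0.746 CPM (median 0.494) in unstimulated AhR-KO, and with LPS 0.632 to 1.66 CPM (median 1.25) and 0.243 to 0.632 CPM (median 0.422). The genotypes were apart at rest and met at 0.632 CPM with LPS. The difference was -2.59 ± 0.22 at rest (adjusted p = 7.23e-12) and -1.54 ± 0.23 with LPS (1.13e-06), and the interaction was 1.05 ± 0.33 (0.0283). The peak 11.2 kb upstream, whose window held an AP-1 match, had 2.11 to 5.002 CPM (median 2.89) in WT and 8.14 to 11.8 CPM (median 10.5) in AhR-KO at rest, and 4.77 to 8.41 CPM (median 5.86) and 10.3 to 13.18 CPM (median 11.96) with LPS. AhR-KO libraries lay above WT libraries in both treatments, by 1.68 ± 0.15 (1.14e-10) and 0.95 ± 0.13 (4.37e-07), with an interaction of -0.73 ± 0.20 (0.0117).

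Il33 encodes a nuclear alarmin, and 9 of its 15 peaks were higher in AhR-KO with LPS while 0 were lower. Over all tested peaks 13.4% were higher and 13.1% lower. Of those 9 Il33 peaks, 8 separated the genotypes without overlap. How often called peaks as a whole did so was not computed. The peak 2.0 kb upstream of the start (chr19:29922823-29923410) had 0 to 0.248 CPM (median 0.167) in unstimulated WT, on 0 to 5 counts per library, and the library without a count allows up to 0.193 CPM (3 counts, counting error only). Unstimulated AhR-KO had 0.228 to 0.747 CPM (median 0.524), WT with LPS 1.08 to 1.60 CPM (median 1.39) and AhR-KO with LPS 5.92 to 8.17 CPM (median 6.95). Every AhR-KO LPS library lay well above every other library, and the unstimulated genotypes overlapped. The genotype difference was 1.62 ± 0.35 at rest (adjusted p = 0.000252) and 2.35 ± 0.15 with LPS (3.21e-14). WT rose with LPS by 3.05 ± 0.28 and AhR-KO by 3.77 ± 0.18, and their interaction, 0.72 ± 0.44 (0.280), was not called. Single-library peak lists held it in 0 of 12 unstimulated, 5 of 6 WT LPS and 6 of 6 AhR-KO LPS libraries.

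An intronic Il33 peak 17.5 kb into the gene had 0.198 to 0.479 CPM (median 0.406) and 0.466 to 0.746 CPM (median 0.573) at rest, and 1.65 to 2.93 CPM (median 2.31) and 6.96 to 9.54 CPM (median 8.58) with LPS. Here too every AhR-KO LPS library exceeded every other. The genotype difference was 0.61 ± 0.25 at rest (adjusted p = 0.0583) and 1.85 ± 0.12 with LPS (4.66e-14), and the interaction was 1.24 ± 0.29 (0.00316). A peak 19.4 kb upstream had 0.233 to 0.506 CPM (median 0.396) and 0.593 to 1.13 CPM (median 0.801) at rest, and 1.47 to 2.12 CPM (median 1.86) and 4.99 to 7.48 CPM (median 6.09) with LPS. Its difference was 0.95 ± 0.23 at rest and 1.74 ± 0.13 with LPS (5.05e-13), and its interaction of 0.79 ± 0.27 (0.0422) did not pass with the size factors of DESeq2 (adjusted p = 0.0563).

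The Il33 peak with the most signal per kb, 15.7 kb into the gene, had 13.5 to 18.03 CPM (median 14.96) against 22.5 to 27.04 CPM (median 24.6) at rest and 18.9 to 21.3 CPM (median 19.4) against 25.7 to 27.6 CPM (median 26.5) with LPS. The genotypes did not overlap in either treatment, by 0.67 ± 0.07 at rest (adjusted p = 6.99e-10) and 0.43 ± 0.06 with LPS (1.29e-06, under the fold threshold). The Il33 TSS peak was low throughout, with 1.28 to 2.12 CPM (median 1.92) and 1.73 to 2.80 CPM (median 2.29) at rest and 1.15 to 2.18 CPM (median 1.61) and 2.04 to 2.73 CPM (median 2.29) with LPS, and was called in none of the comparisons. The single Il33 peak lower in AhR-KO at rest, 52.3 kb from the gene start and named after its values were seen, was higher with LPS, with means of 0.289, 0.134, 0.538 and 1.17 CPM in unstimulated WT, unstimulated AhR-KO, WT LPS and AhR-KO LPS. The genotypes overlapped there at rest, and signals that low stand on few counts per library.

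**Figure D4:**
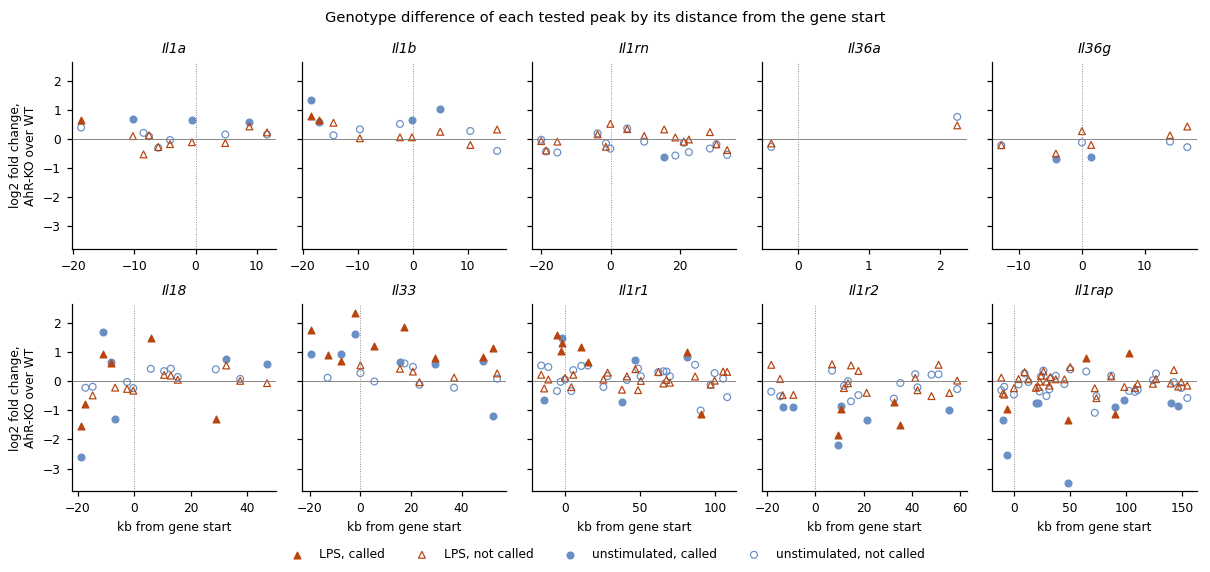
Log2 fold change of AhR-KO over WT (vertical axis) for each tested peak against the distance of its centre from the gene start (horizontal axis, kb), without and with LPS. With LPS 14 of 15 Il33 peaks lay above 0, and the lowest point is the Il1rap intronic peak at -3.49 without LPS.

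Il1rap encodes the co-receptor chain shared by IL-1, IL-33 and IL-36. Without LPS, 9 of its 36 tested peaks were lower in AhR-KO and 0 were higher (background 12.6% lower and 9.95% higher). Of the 9, 6 separated the genotypes without overlap, a share not computed for called peaks as a whole. With the size factors of DESeq2 Il1rap had 0 higher and 7 lower at rest. In the main fit with LPS, 2 of the 36 were higher in AhR-KO and 3 lower (13.9%, background 26.5%). The intronic peak 48.4 kb into the gene (chr16:26629972-26630317) had 2.79 to 7.99 CPM (median 5.29) in unstimulated WT and 0.319 to 0.702 CPM (median 0.392) in unstimulated AhR-KO, and with LPS 0.833 to 1.498 CPM (median 1.15) and 0.361 to 0.529 CPM (median 0.474). WT libraries exceeded AhR-KO libraries in both treatments, and WT LPS libraries lay between the other WT and the AhR-KO libraries. The genotype difference was -3.49 ± 0.22 at rest (adjusted p = 1.56e-14) and -1.33 ± 0.24 with LPS (2.24e-05). The LPS change was -2.17 ± 0.18 in WT (9.28e-13) while AhR-KO had -0.01 ± 0.29 (0.974), an interaction of 2.16 ± 0.35 (5.71e-05).

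A peak 5.7 kb upstream of Il1rap had 1.28 to 4.09 CPM (median 2.71) and 0.325 to 0.638 CPM (median 0.432) at rest and 0.459 to 0.929 CPM (median 0.736) and 0.287 to 0.489 CPM (median 0.360) with LPS. The genotypes were apart at rest and overlapped with LPS. It differed by -2.53 ± 0.23 at rest (adjusted p = 3.91e-11) and -0.95 ± 0.26 with LPS (0.00266), with an interaction of 1.57 ± 0.36 (0.00259). The TSS peak, with the most signal per kb, had 47.2 to 58.6 CPM (median 51.7) and 33.9 to 39.6 CPM (median 38.1) at rest, and 37.4 to 44.3 CPM (median 39.6) and 32.01 to 36.7 CPM (median 33.8) with LPS. It separated the genotypes in both treatments, but its differences of -0.46 ± 0.06 and -0.24 ± 0.06 were under the fold threshold. LPS raised 13 of 36 Il1rap peaks in AhR-KO and 10 in WT, and lowered 1 and 4.

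Il1r2 encodes the decoy receptor for IL-1. At rest 6 of its 20 peaks were lower in AhR-KO and 0 higher, and with LPS 4 were lower and 0 higher (1 higher with the size factors of DESeq2). The peak over an annotated TSS 10.6 kb inside the gene (chr1:40084484-40084806) had 4.19 to 6.47 CPM (median 4.90) in unstimulated WT and 2.29 to 3.46 CPM (median 2.91) in unstimulated AhR-KO, and 3.35 to 6.06 CPM (median 3.66) and 1.81 to 2.47 CPM (median 2.21) with LPS. The genotypes did not overlap in either treatment, with differences of -0.85 ± 0.14 (adjusted p = 8.72e-06) and -0.94 ± 0.14 (1.22e-06). Single-library lists overlapped it in 12 of 12 WT and 0 of 12 AhR-KO libraries.

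Some 9.3 kb into Il1r2, the stretch printed above had 1.51 to 2.31 CPM (median 1.85) against 0.174 to 0.615 CPM (median 0.387) at rest and 1.12 to 3.19 CPM (median 1.69) against 0.324 to 0.733 CPM (median 0.525) with LPS. Again WT and AhR-KO libraries did not overlap. The difference was -2.18 ± 0.26 (adjusted p = 2.53e-08) and -1.86 ± 0.24 (5.55e-08), and the LPS changes of 0.02 ± 0.21 and 0.33 ± 0.31 were not called. The Il1r2 peak with the most signal per kb, 13.6 kb into the gene, had 6.75 to 8.19 CPM (median 7.68) and 6.34 to 8.77 CPM (median 7.61) at rest and 4.97 to 6.17 CPM (median 5.66) and 4.59 to 6.68 CPM (median 5.19) with LPS, and was called in none of the comparisons. Other Il1r2 peaks had interactions of either sign. An intronic peak 35.3 kb into the gene had 0.132 to 0.353 CPM (median 0.311) and 0.217 to 0.307 CPM (median 0.273) at rest, on 2 to 8 and 5 to 7 counts, and 1.12 to 3.16 CPM (median 1.92) and 0.489 to 0.948 CPM (median 0.783) with LPS. It rose by 2.90 ± 0.28 in WT and 1.45 ± 0.31 in AhR-KO (interaction -1.45 ± 0.46, adjusted p = 0.0283). With libraries thinned to the lowest total this interaction was not called. A peak 17.9 kb into the gene rose by 0.71 ± 0.10 in WT and 1.54 ± 0.10 in AhR-KO (interaction 0.83 ± 0.15, 0.000163).

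Il1r1 encodes the signalling receptor for IL-1α and IL-1β. LPS raised 12 and lowered 6 of its 29 peaks in WT, and raised 10 and lowered 7 in AhR-KO. Its TSS peak (chr1:40224624-40225301) had 3.97 to 5.12 CPM (median 4.25) and 4.13 to 5.11 CPM (median 4.36) at rest and 6.16 to 9.36 CPM (median 8.42) and 8.03 to 9.69 CPM (median 8.77) with LPS. LPS libraries lay above unstimulated libraries in both genotypes, by 0.92 ± 0.10 in WT (adjusted p = 4.28e-10) and 0.97 ± 0.10 in AhR-KO (3.96e-11). The intronic peak with the most signal per kb, 5.4 kb into the gene, had 10.7 to 12.4 CPM (median 11.8) and 14.2 to 15.9 CPM (median 15.3) at rest and 14.1 to 17.4 CPM (median 15.4) and 15.7 to 19.99 CPM (median 17.9) with LPS, and was called in none of the comparisons. A peak 97.2 kb from the start, beyond the gene end, changed by -0.94 ± 0.09 and -0.94 ± 0.09. Between genotypes 6 peaks were higher in AhR-KO with LPS and 1 lower. The single Il1r1 peak with a called interaction, 5.5 kb upstream and named after its values were seen, had means of 0.432, 0.338, 1.01 and 3.01 CPM in unstimulated WT, unstimulated AhR-KO, WT LPS and AhR-KO LPS, with an interaction of 1.91.

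Among markers of other cells, Kit and Flt3 were lower in AhR-KO in both treatments. The called Il1r2 and Il1rap peaks were all lower at rest. With LPS Il1r2 had 0 higher and 4 lower, and Il1rap 2 higher and 3 lower. Of the mast cell and basophil list 1 of 4 genes had a TSS peak (Cpa3, Ms4a2 and Mcpt8 had none), Kit, with 8.96 to 12.9 CPM and 3.97 to 5.30 CPM in unstimulated WT and AhR-KO and 10.97 to 15.9 CPM and 5.47 to 6.998 CPM with LPS. Of the dendritic cell list 4 of 4 had one, with sums of 25.8 to 35.4 CPM and 26.7 to 32.8 CPM at rest and 28.4 to 45.4 CPM and 20.1 to 25.96 CPM with LPS. Members of that list went opposite ways at rest, with Flt3 at means of 9.07 and 4.09 CPM in WT and AhR-KO (11.6 and 4.73 with LPS), Ccr7 at 0.940 and 0.551 (7.05 and 2.46), Cd209a at 0.386 and 0.290 (0.169 and 0.128) and Zbtb46, the largest part of the sum, at 21.6 and 25.1 (17.99 and 15.8). Fibroblast and stroma markers, with a TSS peak for 2 of 4 genes, summed to 14.02 to 20.4 CPM and 15.7 to 18.6 CPM at rest and 13.3 to 19.6 CPM and 11.3 to 12.9 CPM with LPS, and the single T cell gene with a peak to 3.43 to 4.97 CPM and 4.38 to 5.44 CPM, then 1.45 to 1.93 CPM and 2.40 to 3.13 CPM. Their part in the receptor results was not tested.

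Over the family, 24 peaks had a called interaction (15.2%, background 10.4%), 17 positive and 7 negative, against 5.83% and 4.58% of all tested peaks. With libraries thinned to the lowest total, 13 of 135 tested family peaks were called (10 positive and 3 negative), against 6.45% of all peaks tested there. The negative ones comprised 2 peaks each of Il1a, Il1b and Il18 and 1 of Il1r2. The positive ones comprised 4 each of Il1rap and Il33, 3 each of Il1rn and Il18, 2 of Il1r2 and 1 of Il1r1. Of the 13 family peaks over a TSS, 2 were higher and 1 lower in AhR-KO at rest (23.1%, background 22.6%). LPS raised 5 of them in each genotype, beside 25.4% and 27.3% of all tested peaks in WT and AhR-KO. Upstream peaks were called between unstimulated genotypes in 17 of 43 cases (39.5%) and intronic ones in 12 of 61 (19.7%). Shares by location, those over a TSS included, were not computed over all tested peaks, so these counts show no effect of location.

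Motif letters were counted in the 300-base centre of each tested peak. AP-1 stood in 22.2% of family windows and 18.1% of all windows, C/EBP in 20.9% and 15.8%, and NF-κB in 8.86% and 4.88%. The AhR letters stood in 1 family window (0.633%, all windows 2.9%), and that peak was called in neither genotype comparison. In windows of 500 bases they stood in 4 (2.53%, all windows 4.73%). Outside their centres more family peaks held them. One was the Il1rn peak 15.5 kb from the start, called lower in AhR-KO at rest and with a called interaction. The shorter AhR core, which overlaps the AhR letters and was added after the data were seen, stood in 9.49% and 16.3% of the 300-base windows. ISRE stood in 2.53% and 4.6%, and PU.1 in 6.33% and 7.49%. Among the 23 family peaks higher in AhR-KO with LPS, 11 held AP-1 (47.8%), and among the 11 lower ones 0 did, beside 27.6% and 15% of all peaks called in those directions. NF-κB stood in 2 of the higher (8.7%) and 4 of the lower ones (36.4%), beside 3.5% and 8.99% over all peaks. Of the 65 peaks raised by LPS in WT, 22 held AP-1 (33.8%) and 11 held NF-κB (16.9%), beside 35.6% and 10.2% of all peaks raised there. These are letter matches and carry no test.

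The genes whose TSS peak was most like that of Il1b over the 24 libraries, by Pearson's r of log2 CPM among 12653 genes outside chromosome 2, were Zbtb17 (0.971), Tnfaip3 (0.970) and Msantd3 (0.968). The 24 points share the difference between LPS and unstimulated groups. Tnfaip3 encodes an inhibitor of NF-κB signalling.

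The rest of the pathway was taken as 26 further genes with 243 tested peaks. Between genotypes 17 were higher and 24 lower in AhR-KO at rest (16.9%, background 22.6%). With LPS 22 were higher and 19 lower (16.9%, background 26.5%). LPS raised 79 and lowered 28 in WT (44%, background 47%), and raised 90 and lowered 27 in AhR-KO (48.1%, background 48.8%). At rest 9.95% of all tested peaks were higher and 12.6% lower, which is the background for the lists that follow. The other receptors (Il1rl1, Il1rl2, Il18r1, Il18rap, Sigirr, Il1rapl1) had 3 higher and 9 lower of 40 at rest (30%). Among them were 4 lower of 8 for Il18rap, a chain of the IL-18 receptor. Adaptors and kinases such as Myd88 and the Irak genes had 9 higher and 15 lower of 144 (16.7%). The processing genes Casp1, Casp4, Nlrp3, Pycard and Gsdmd had 3 higher and 0 lower of 45 (6.67%). The remaining ligands, antagonists and decoys (Il36b, Il36rn, Il1f10, Il18bp) had 2 higher and 0 lower of 14 (14.3%). LPS raised 9 and lowered 1 of these 14 in WT (71.4%, background 47%). In AhR-KO it raised 6 and lowered 1 (50%, background 48.8%).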

How the data were processed

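Counts of read pairs per consensus peak came from the table the authors deposited, made with the nf-core atacseq pipeline 1.2.1 on mm10 (bcl2fastq 2.20.0) and featureCounts 2.0.1, in which a pair overlapping a peak by a fraction of 0.2 counted for every such peak. The authors also deposited a list of MACS2 broad peaks per library (version not given in the sources used here), with the −log10 q-value and fold enrichment of each peak, of which the q-value and position were used here. Replicates were not pooled.

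The members and gene lists were chosen with earlier results of these data known. Low-count peaks were left out by filterByExpr, and edgeR 4.0.16 (R 4.3.3, TMM, robust quasi-likelihood, all 4 groups in 1 fit, Benjamini-Hochberg over 174193 peaks) gave every adjusted p-value. DESeq2 1.42.0, its size factors, no filter, other fold thresholds, thinning, leaving out unstimulated WT replicate 5, a replicate block and a 5 kb flank were tried. In a test on simulated data for the unstimulated genotype comparison with 162782 peaks, 30 of 67 peaks changed 1.5-fold, 65 of 67 changed 2-fold and 66 of 66 changed 4-fold were called, with 6 false calls. Its changed peaks were drawn only from those of about 1 CPM or more. Recovery at lower peaks was not simulated, and 32 family peaks had a mean under 1 CPM. Few peaks changed there, whereas 22.6% were called in the data, so its false calls do not carry over. Library totals of 8536838 to 34598345 counts limit low peaks most, and the fitted errors cover the spread between libraries. No pair of libraries in a group agreed within sampling noise (lowest chi-square 1.264 per peak, 60 pairs). Named peaks were, per gene, the TSS peak with the most signal and the peak with the highest CPM per kb, and, per comparison and direction, the 3 called peaks with the smallest p. Peaks over a TSS of a neighbouring gene (4) are uncertain as to their gene. Motifs and figures used Python 3.11.15, pandas 2.3.3, scipy 1.17.1 and matplotlib 3.10.9.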

Additional observations from a re-analysis of the deposited data

Results flagged for a closer look

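In 3 of 140 groups of 6 libraries, over the 35 named peaks, 1 library lay far from the others, and chance alone gives about 1 in 20. At the Il1a peak 10.2 kb upstream, unstimulated WT replicate 5 had 19.2 CPM, beside 16.91 to 17.5 CPM in the other 5 libraries of its group. At the large Il1b peak 5.0 kb into the gene the same library, the shallowest, had 6.40 CPM, beside 3.236 to 4.05 CPM in the other 5 libraries of its group. At the Il1rn peak 9.7 kb into the gene, AhR-KO LPS replicate 5 had 40.6 CPM, beside 28.04 to 32.7 CPM in the other 5 libraries of its group. Without unstimulated WT replicate 5 the unstimulated genotype difference at Il1a was 0.72 (with it 0.70) and at Il1b 1.13 (with it 1.02).

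The genotype difference itself differed between LPS and unstimulated libraries at 14 named peaks by the interaction term of the edgeR fit. It was smaller with LPS at the Il1a TSS (-0.77) and 10.2 kb upstream of Il1a (-0.60), and at the Il1b TSS (-0.60) and 5.0 kb into Il1b (-0.78). The Il18 peaks 11.2 and 18.8 kb upstream had -0.73 and 1.05, both toward a smaller difference. The Il1rap peaks 48.4 kb into the gene and 5.7 kb upstream had 2.16 and 1.57, again toward a smaller difference. At Il33 the difference grew, by 1.24 at the peak 17.5 kb into the gene and by 0.79 at the peak 19.4 kb upstream. The Il1r2 peaks 35.3 and 17.9 kb into the gene had -1.45 and 0.83, and the Il1rn peaks at the gene start and at the 3' end 0.85 and 0.94. Some calls were lost after thinning to the lowest total. Over all family peaks, negative calls fell from 2 to 1 in each of Il1a, Il1b and Il18 and from 1 to 0 in Il1r2. Positive calls fell from 4 to 1 in Il33, 3 to 1 in Il18, 3 to 2 in Il1rn and 2 to 1 in Il1r2. They stayed at 4 in Il1rap and 1 in Il1r1.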

How the results depend on the processing

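Under a fold threshold of 2 in place of 1.5 the family had 5 higher and 8 lower in AhR-KO at rest, 10 and 7 with LPS, 48 and 11 for LPS in WT, 54 and 7 for LPS in AhR-KO, and 10 positive and 2 negative interactions, where 3.29% and 6.7%, 4.56% and 6.83%, 18% and 10.9%, 19% and 11.2% and 3.06% and 2.02% of all tested peaks were called in the 5 comparisons in that order. With no fold threshold it had 34 higher and 37 lower in AhR-KO at rest, 44 and 29 with LPS, 76 and 44 for LPS in WT, 81 and 39 for LPS in AhR-KO, and 22 positive and 10 negative interactions. With peaks within 5 kb of the gene body it had 10 higher and 15 lower in AhR-KO at rest, 12 and 8 with LPS, 43 and 15 for LPS in WT, 41 and 10 for LPS in AhR-KO, and 10 positive and 5 negative interactions. Libraries thinned to the lowest total gave 15 higher and 20 lower in AhR-KO at rest, 21 and 9 with LPS, 55 and 20 for LPS in WT, 58 and 12 for LPS in AhR-KO, and 10 positive and 3 negative interactions. The size factors of DESeq2 in the edgeR fit gave 24 higher and 18 lower in AhR-KO at rest, 24 and 11 with LPS, 65 and 22 for LPS in WT, 63 and 18 for LPS in AhR-KO, and 15 positive and 8 negative interactions, and DESeq2 itself 23 higher and 19 lower in AhR-KO at rest, 24 and 11 with LPS, 65 and 21 for LPS in WT, 63 and 18 for LPS in AhR-KO, and 15 positive and 8 negative interactions. Left without unstimulated WT replicate 5, the library with the lowest total, the family had 20 higher and 25 lower in AhR-KO at rest, 23 and 11 with LPS, 63 and 21 for LPS in WT, 63 and 17 for LPS in AhR-KO, and 18 positive and 7 negative interactions. Of the 43 calls at rest, 38 were kept with the size factors of DESeq2, 40 without replicate 5 and 30 after thinning, and of the 24 interactions 13 were kept after thinning, the lowest share of the 5 comparisons. Over the 175 values of named peaks, 172 held their side of the threshold with DESeq2, 171 with its size factors, 175 with no filter on low counts and 164 after thinning, and none reversed. Peaks found in all 6 lists of a group numbered 65, 80, 87 and 90 in unstimulated WT, unstimulated AhR-KO, WT LPS and AhR-KO LPS, 18, 34, 53 and 53 where a list had to cover 50% of the peak, and 40, 58, 75 and 71 where −log10 q had to reach 5. These list counts were not adjusted for depth, which differed between groups. Mean library totals were lowest in unstimulated WT and highest in WT LPS. Unstimulated WT also held the library with the lowest total, 8536838 counts, which can limit a count over all 6 lists. No share over all peaks is given beside them, so the list counts show no effect of genotype or LPS. The AhR core stood in 16.5% of family windows of 500 bases against 9.49% of 300 bases.

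The replicate numbers fell short of the rule for pairing, that every same-numbered pair of unstimulated and LPS libraries correlates over 0.1. In WT 5 of 6 same-numbered pairs and in AhR-KO 2 of 6 had a correlation of deviations over 0.1 (r 0.037 to 0.29 and 0.00375 to 0.171 across peaks), and 7 of 12 and 6 of 12 libraries correlated best with their own number. Same-numbered r were positive in both genotypes, so the numbers may mark shared animals within a genotype, and this was not settled. The replicate block gave 18 higher and 22 lower in AhR-KO at rest, 24 and 11 with LPS, 65 and 23 for LPS in WT, 64 and 17 for LPS in AhR-KO, and 17 positive and 7 negative interactions, and a replicate block within each genotype 65 and 23 for LPS in WT, 64 and 17 in AhR-KO, and 19 and 7 for the interaction.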
